A study of Mus musculus with 5 samples.

Results

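Cxcr2, a chemokine receptor, and 8 secreted chemokines, cytokines and growth factors were followed through 5 RNA-seq libraries of mouse embryonic fibroblasts during reprogramming. The 8 factors were Cxcl1, Cxcl5, Cxcl12, Ccl2, Ccl7, Cx3cl1, Il6 and Csf1. The 9 genes were taken by symbol from the 29267 genes of the deposited tables, and each matched 1 row. The set was selected on counts and folds of these same libraries that were already known, that of Cxcr2 for CypD over Flag among them, so the levels below are a description and no test is given for them.

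All libraries came from mouse embryonic fibroblasts (MEFs) of ICR background, a primary mesenchymal cell type commonly used as the starting cell for induced pluripotency. At day 4 of reprogramming there was 1 library of cells expressing CypD (cyclophilin D, the mitochondrial matrix cyclophilin encoded by Ppif that promotes opening of the permeability transition pore) and 1 of cells expressing Flag as the control. At day 8 there was 1 library of untreated control cells, 1 of cells treated with the wasp-venom peptide mastoparan, which activates G proteins, and 1 of cells treated with paraquat, a herbicide that cycles electrons and generates superoxide. The series title puts the question as which genes the mitoflash regulates, a brief mitochondrial burst of superoxide signal. The sample labels also give the genotype of all 3 day-8 libraries as expressing CypD, which the series' design text does not. The sources used here do not give the doses, the promoter and vector of the transgenes, the factors introduced or the number of animals or cultures behind each library. With 1 library per group, no difference below has a replicate check and no p-value is given.

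The total expected count ran from 2426015 to 3426702 per library. A level below is a scaled CPM, the count per 1e+06 reads of a library whose size was adjusted by the trimmed mean of M-values (TMM), unless the deposited TPM is named, which also divides by transcript length. A fold is a ratio of scaled counts with its 95% exact (Clopper-Pearson) interval in parentheses. These intervals cover counting error only, since reads of amplified libraries are not independent molecules, and they are not adjusted for choosing extreme genes. A count of 3 in a library, worth 0.869 to 1.30 scaled CPM here, was taken as the floor of detection. The count of Ppif was 112 with Flag, 2629 with CypD, 90 in the day-8 control, 95 with mastoparan and 79 with paraquat. CypD therefore stood 17.2-fold above Flag (14.3 to 21.0), and none of the day-8 libraries had a count near that of the CypD library. All 11 fibroblast markers were above the floor in every library, with a summed level of 7381 to 7667 CPM. The sum hides single markers: 3 were higher and 5 lower in all 3 day-8 libraries than in both day-4 libraries. Among all genes averaging 1 CPM or more, 28.5% and 28.1% were higher and lower in the same way.

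CXCR2 is a G protein-coupled receptor best known on neutrophils, where it binds the CXC chemokines that carry a glutamate-leucine-arginine motif, Cxcl1 and Cxcl5 among them, and directs the cells towards injury and infection. Fibroblasts are a known source of chemokines: Ccl2 and Ccl7 recruit monocytes, Cxcl12 retains stem and progenitor cells through Cxcr4, and membrane-bound Cx3cl1 tethers cells that carry Cx3cr1. Il6 acts through gp130 and STAT3, and Csf1 maintains macrophages through its receptor Csf1r. Several of these genes are textbook targets of NF-kappaB, which binds decameric kappaB sites near their starts.

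The sequence upstream of the start is shown for Cxcr2, whose level separated the most pairs of libraries, and for Cxcl1 and Csf1, which differed between the days without overlap. Each is the 250 bases before the RefSeq transcript start in GRCm38.p6, written 5′ to 3′ on the gene's own strand, with capitals on matches to the kappaB pattern GGGNNNNNCC on either strand. The Cxcr2 stretch is chr1:74153744-74153993 on the plus strand, the Cxcl1 stretch is chr5:90890995-90891244 on the plus strand, and the Csf1 stretch is chr3:107760470-107760719 on the minus strand.
Cxcr2: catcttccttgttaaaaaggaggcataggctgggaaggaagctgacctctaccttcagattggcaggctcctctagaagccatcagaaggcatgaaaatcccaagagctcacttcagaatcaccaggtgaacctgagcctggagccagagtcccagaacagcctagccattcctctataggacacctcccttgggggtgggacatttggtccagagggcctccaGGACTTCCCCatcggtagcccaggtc
Cxcl1: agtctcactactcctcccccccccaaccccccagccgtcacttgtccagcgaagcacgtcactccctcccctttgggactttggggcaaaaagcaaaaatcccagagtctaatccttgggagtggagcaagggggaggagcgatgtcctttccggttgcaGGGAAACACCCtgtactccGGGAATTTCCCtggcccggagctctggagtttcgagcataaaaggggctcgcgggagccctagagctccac
Csf1: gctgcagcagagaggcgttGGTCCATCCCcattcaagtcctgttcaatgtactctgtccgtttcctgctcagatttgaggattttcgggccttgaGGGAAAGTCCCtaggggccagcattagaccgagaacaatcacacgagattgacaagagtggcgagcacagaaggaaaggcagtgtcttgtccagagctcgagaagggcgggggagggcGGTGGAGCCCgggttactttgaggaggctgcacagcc
Positions are counted from the start, with -1 the base before it. Cxcr2 had 1 match on the minus strand, from -26 to -17. Cxcl1 had matches at 2 places, from -90 to -80 and from -71 to -61, where a match on each strand overlaps the other by all but a base. Csf1 had matches at 3 places upstream, the middle one from -155 to -145 and again read on both strands. Of the 9 genes, 6 were in the promoter table (Cxcl5, Ccl2 and Ccl7 are named only). Within 250 bases before and 50 after the start, 5 of those 6 held the pattern, against 50.79% of all 32851 promoters in that table, so a match is common. Cx3cl1 was the one without it in this window.

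Cxcr2 was highest with CypD and lowest with paraquat. Its count was 10 with Flag and 64 with CypD at day 4, and 33 in the control, 27 with mastoparan and 7 with paraquat at day 8. The scaled levels were 3.95, 18.5, 10.7, 9.47 and 3.03 CPM in the same order, and the deposited TPM values were 1.97, 8.93, 5.15, 4.41 and 1.26. CypD at day 4 thus had the highest level, the control and mastoparan libraries lay together in the middle, and Flag and paraquat lay together at the bottom. Total expected counts fell in the same order. They were 3426702 with CypD, 3016439 in the control, 2834186 with mastoparan, 2497736 with Flag and 2426015 with paraquat. Any part of depth in the order of the scaled Cxcr2 levels was not tested.

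The order of Cxcr2 levels had gaps of unequal size. CypD stood 1.73-fold (1.12 to 2.72) above the day-8 control, the next library down. The control and mastoparan differed by 1.13-fold (0.659 to 1.95), and Flag and paraquat by 1.30-fold (0.447 to 4.03), both within counting error. Between them, mastoparan stood 2.40-fold (1.13 to 5.56) above Flag. Of the 10 pairs of libraries, 8 had an interval for Cxcr2 that left out 1.

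At day 4, Cxcr2 was 4.70-fold higher with CypD than with Flag (2.40 to 10.3), a log2 ratio of 2.10 and rank 48 from the top among 13244 genes compared. At day 8 it was 3.53 times lower with paraquat than in the control (1.54 to 9.45). Mastoparan and control could not be separated, at 0.885-fold (0.512 to 1.52). Mastoparan was 3.12-fold higher than paraquat (1.33 to 8.50). These day-8 folds share libraries with each other and are not separate pieces of evidence.

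The Cxcr2 gene (GRCm38 chromosome 1, 74153989 to 74161246, plus strand) has 2 annotated transcripts with the same 1077-base coding sequence, all of it in the second exon. The deposited average length was 3046 bases in all 5 libraries, which equals the spliced length of the longer transcript. In that transcript the second exon (74158330 to 74161246) runs through a stretch of 192 bases, 74159878 to 74160069, that the shorter transcript, of 2220 bases when spliced, removes as an intron downstream of the coding sequence. The deposited Cxcr2 length thus equals the longer form in every library, and the Cxcr2 TPM rests on it. Of 3039 different 49-base windows in the Cxcr2 transcripts, 120 (3.949%) also occurred in transcripts of 76 other genes. Part of the Cxcr2 count could thus be shared with them. The share of its reads that fell in those windows was not examined.

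**Figure D1:**
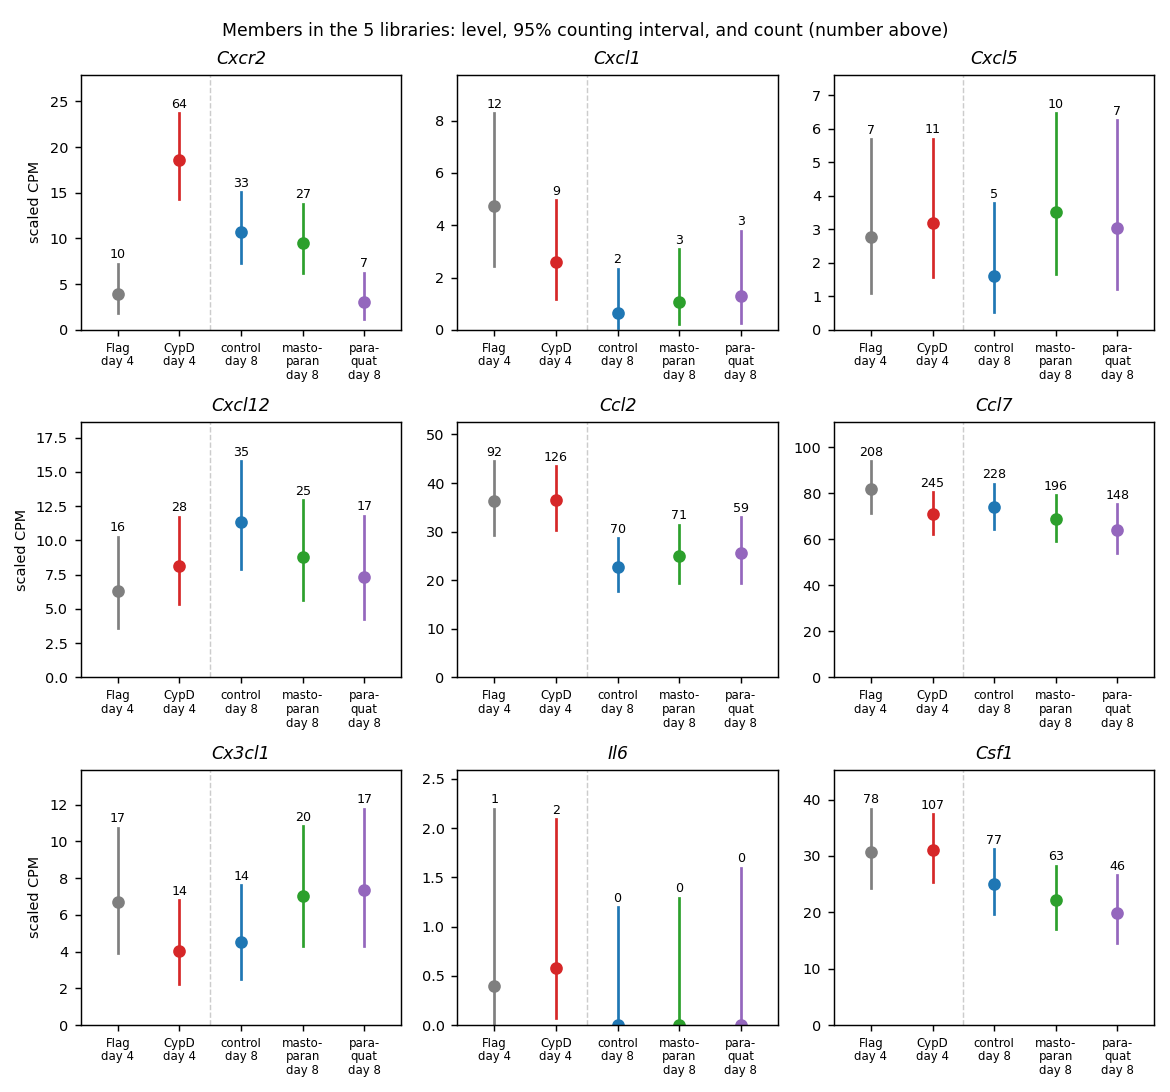
Level of each of the 9 genes in the 5 libraries, in scaled CPM on a linear axis from 0, with bars for the 95% counting interval and the count printed above each bar. The dashed line separates day 4 from day 8, and each panel has its own scale. Cxcr2 runs from 3.03 CPM with paraquat to 18.5 CPM with CypD, Ccl2 and Csf1 lie lower in all 3 day-8 libraries than in both day-4 libraries, and Ccl7 stays between 64.1 and 82.1 CPM.

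Of the 5 listed CXC chemokines that can bind Cxcr2, only Cxcl5 was above the floor in every library, and Cxcl1 was above it at day 4 alone. Cxcl2 and Cxcl3 had 0 counts in all 5 libraries, and Ppbp had 2 counts with paraquat and 0 elsewhere. Cxcr1, the related receptor, had 0 counts in all 5. These 4 genes are named for their ties to Cxcr2, with their values known.

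Cxcl1 (chromosome 5, 90891241 to 90893115) encodes a neutrophil attractant. Its count was 12 with Flag, 9 with CypD, 2 in the day-8 control, 3 with mastoparan and 3 with paraquat. All 3 day-8 libraries were at or under the floor and below both day-4 libraries. The level was 4.74 and 2.61 CPM at day 4 and 0.649 to 1.30 CPM at day 8. Of the 6 pairs of a day-4 and a day-8 library, 2 had an interval that left out 1, both with Flag. The day-8 control was 7.30 times lower than Flag (1.63 to 67.2), on 2 against 12 counts, and mastoparan 4.498 times lower (1.21 to 24.8). Paraquat was 3.64 times lower than Flag, with an interval of 0.983 to 20.1. Between CypD and Flag the level was 1.82 times lower with CypD, with an interval of 0.703 to 4.88 that holds 1. No fold is given among the day-8 libraries, where both counts were at or under the floor.

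Cxcl5 (chromosome 5, 90759360 to 90761624) lies 129616 bases from Cxcl1 in the same chemokine cluster and also encodes a Cxcr2 ligand. It was counted 7 times with Flag, 11 with CypD, 5 in the control, 10 with mastoparan and 7 with paraquat. The levels were 2.76, 3.19, 1.62, 3.51 and 3.03 CPM. The day-8 control was the lowest, and no pair of libraries had an interval that left out 1. Mastoparan over control, for example, was 2.16-fold with an interval of 0.674 to 8.07.

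Cxcl12 (chromosome 6, 117168535 to 117181367) encodes the stromal ligand of Cxcr4 and Ackr3. Its count was 16 with Flag, 28 with CypD, 35 in the day-8 control, 25 with mastoparan and 17 with paraquat. The levels of 6.31, 8.11, 11.4, 8.77 and 7.36 CPM were highest in the day-8 control and lowest in Flag. None of its 10 pairs had an interval that left out 1. The nearest was the control over Flag, 1.80-fold (0.969 to 3.48). The deposited average length of Cxcl12 varied from 2096 to 2624 bases between libraries, so its TPM values (3.79, 5.23, 7.98, 4.73 and 4.06) also carry a change in the assigned transcript mix.

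The receptors that bind Cxcl12 were themselves detected in every library, and are named here for that tie. Cxcr4, its signalling receptor, had 11, 12, 12, 15 and 13 counts from Flag to paraquat in the order used above. Ackr3, a scavenging receptor that removes Cxcl12, had 152 counts with Flag, 212 with CypD, 298 in the control, 284 with mastoparan and 196 with paraquat. Its levels were 60.0 and 61.4 CPM at day 4 and 84.9 to 99.7 CPM at day 8, with no overlap between the days. Such a separation is common, since 28.5% of all genes were higher at day 8 in the same way. By TPM, Ackr3 (29.4 to 46.1) was the most abundant of the listed receptors and Cxcr2 (1.26 to 8.93) and Cxcr4 (3.19 to 5.13) overlapped each other.

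Ccl2 and Ccl7 were the most abundant members, and by TPM the most abundant chemokine ligands. They lie 8258 bases apart on chromosome 11, Ccl2 at 82035571 to 82037453 and Ccl7 at 82045712 to 82047525, and both attract monocytes. Ccl2 had 92 counts with Flag, 126 with CypD, 70 in the control, 71 with mastoparan and 59 with paraquat. Its level was 36.3 and 36.5 CPM at day 4 and 22.7, 24.9 and 25.6 CPM at day 8. The day-8 libraries were all lower, and all 6 pairs of a day-4 and a day-8 library had an interval that left out 1, while no pair within a day did. The day-8 control was 1.60 times lower than Flag (1.16 to 2.21). CypD and Flag differed by 1.01-fold (0.762 to 1.33).

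Ccl2 overlaps Gm17268 on the opposite strand, and whether counting used strand was not given in the sources used here. Gm17268 had 0 counts in all 5 libraries.

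Ccl7 had 208 counts with Flag, 245 with CypD, 228 in the control, 196 with mastoparan and 148 with paraquat. Its level ran from 82.1 CPM with Flag to 64.1 CPM with paraquat and the days overlapped. The Flag over paraquat fold of 1.28 (1.03 to 1.59) was the one pair of 10 whose interval left out 1. The days thus overlapped for Ccl7 and did not for its neighbour Ccl2, a difference that was not tested. Day-8 over day-4 pooled counts gave 1.09 times lower (0.962 to 1.24) for Ccl7 and 1.5 times lower (1.23 to 1.83) for Ccl2. The pooled libraries of a day differ in label or treatment and are not replicates. Ccr2, the main receptor of both on monocytes, had 0 counts in all 5 libraries.

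Cx3cl1 (chromosome 8, 94772009 to 94782427), the membrane-bound chemokine, had 17 counts with Flag, 14 with CypD, 14 in the control, 20 with mastoparan and 17 with paraquat. The levels of 6.71, 4.05, 4.54, 7.02 and 7.36 CPM showed CypD and the day-8 control lowest. The level with CypD was 1.65 times lower than with Flag (0.768 to 3.63), and with paraquat 1.62-fold higher than in the control (0.753 to 3.55). None of its 10 intervals left out 1, and its receptor Cx3cr1 had 0 counts in every library.

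Il6 (chromosome 5, 30013114 to 30019981) was at the limit of detection. It had 1 count with Flag, 2 with CypD and 0 in each day-8 library. For a count of 0, the floor of 3 counts is worth 0.973 CPM in the control, 1.05 CPM with mastoparan and 1.30 CPM with paraquat, and the 95% counting interval reaches 1.20, 1.29 and 1.60 CPM in the same order. A difference between the libraries was not detectable at this depth, and no fold is given. The parts that receive the signal were present: Il6ra had 17 counts with Flag, 21 with CypD, 20 in the control, 17 with mastoparan and 6 with paraquat. Il6st (gp130), named here as the shared signalling subunit, had 147, 217, 154, 139 and 77 counts in the same order.

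Csf1 (chromosome 3, 107741048 to 107760469, minus strand) had 78 counts with Flag, 107 with CypD, 77 in the control, 63 with mastoparan and 46 with paraquat. The levels were 30.8 and 31.0 CPM at day 4 and 24.97, 22.1 and 19.9 CPM at day 8, so the days did not overlap. Of all genes, 28.1% were lower at day 8 in the same way. The day-4 libraries differed by 1.01-fold (0.745 to 1.37). Each pair of neighbours in the order of levels held 1 in its interval, and 3 of 10 pairs left it out, all between a day-4 and a day-8 library. The widest was CypD over paraquat, 1.55-fold (1.09 to 2.25). The deposited average length of Csf1 ranged from 2503 to 3384 bases, and its TPM (14.1 with Flag, 16.5 with CypD, 12.8, 9.20 and 9.57 at day 8) kept the day-8 libraries lowest. Csf1r, its receptor and a marker of macrophages, had 0 counts at day 4 and 4, 3 and 10 counts in the control, mastoparan and paraquat libraries.

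By TPM, which allows levels of different genes to be set side by side, Ccl7 (100.4 to 163.0) was above Ccl2 (37.9 to 69.6) and Ccl2 above Csf1 (9.20 to 16.5) in every library. Cxcr2, Cxcl1, Cxcl5, Cxcl12 and Cx3cl1 lay between 1.03 and 8.93, and Il6 between 0 and 0.80.

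**Figure D2:**
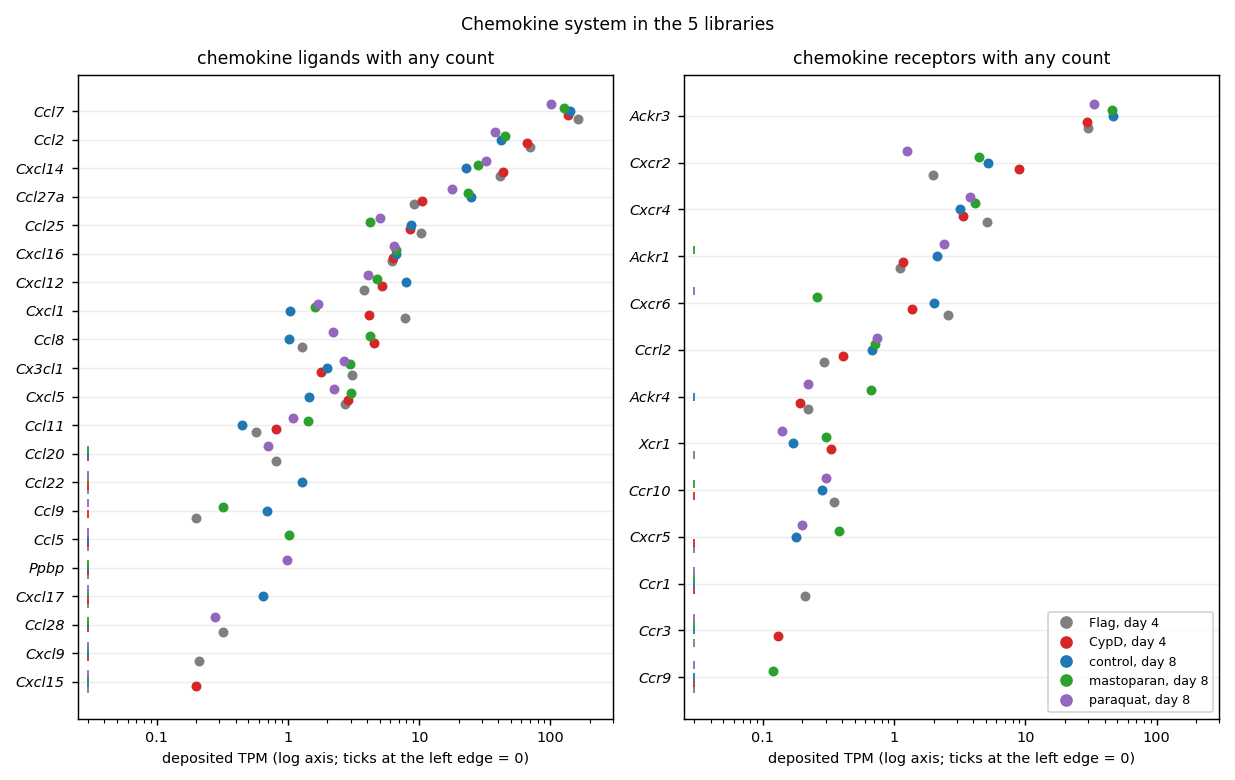
Deposited TPM of listed chemokine ligands (left) and chemokine receptors (right) with a count in at least 1 library, on a log axis, with 1 point per library and ticks at the left edge for values of 0. Ccl7 and Ccl2 lead the ligands and Ackr3 the receptors, and Cxcr2 spreads from 1.26 to 8.93 TPM.

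In each comparison the members were set beside all genes whose level averaged 1 CPM or more in that pair of libraries. A gene was counted as higher or lower when its log2 ratio, computed with a pseudocount of 0.5 CPM, passed 1.5-fold. Because the members were chosen with such values known, nothing about them as a group is read from these counts.

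For CypD against Flag, 8 members were compared. Only Cxcr2 was at least 1.5-fold higher, beside 5.22% of all genes, and Cxcl1 and Cx3cl1 were at least 1.5-fold lower, beside 5.75%. The interval left out 1 for Cxcr2 alone, beside 8.32% of genes in either direction. The median log2 ratio of the members was 0.01 and that of all genes -0.02. Cxcl5, Cxcl12, Ccl2, Ccl7 and Csf1 lay within 1.5-fold, Ccl2 and Csf1 both at a log2 ratio of 0.01.

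For mastoparan against control, 7 members were compared. Cxcl5 was at least 1.5-fold higher, beside 5.29% of all genes, and none was lower, beside 5.7%. No member had an interval that left out 1, beside 7.36% of genes. The median was -0.10 for the members and 0.01 for all genes.

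For paraquat against control, 7 members were compared. Cxcl5 and Cx3cl1 were at least 1.5-fold higher, beside 8.22% of all genes, and Cxcr2 and Cxcl12 at least 1.5-fold lower, beside 10.5%. Cxcr2 alone had an interval that left out 1, beside 21.1% of genes. The median was -0.20 for the members and -0.03 for all genes. Cxcl12 lay at the edge of the threshold, at a log2 ratio of -0.59, and on the deposited TPM neither Cxcl5 nor Cx3cl1 passed 1.5-fold.

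For mastoparan against paraquat, 8 members were compared. Cxcr2 was at least 1.5-fold higher with mastoparan, beside 9.27% of all genes, and none was lower, beside 7.72%. Its interval was the only one of the members that left out 1, beside 19.3% of genes. The median was 0.12 for the members and 0.02 for all genes.

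**Figure D3:**
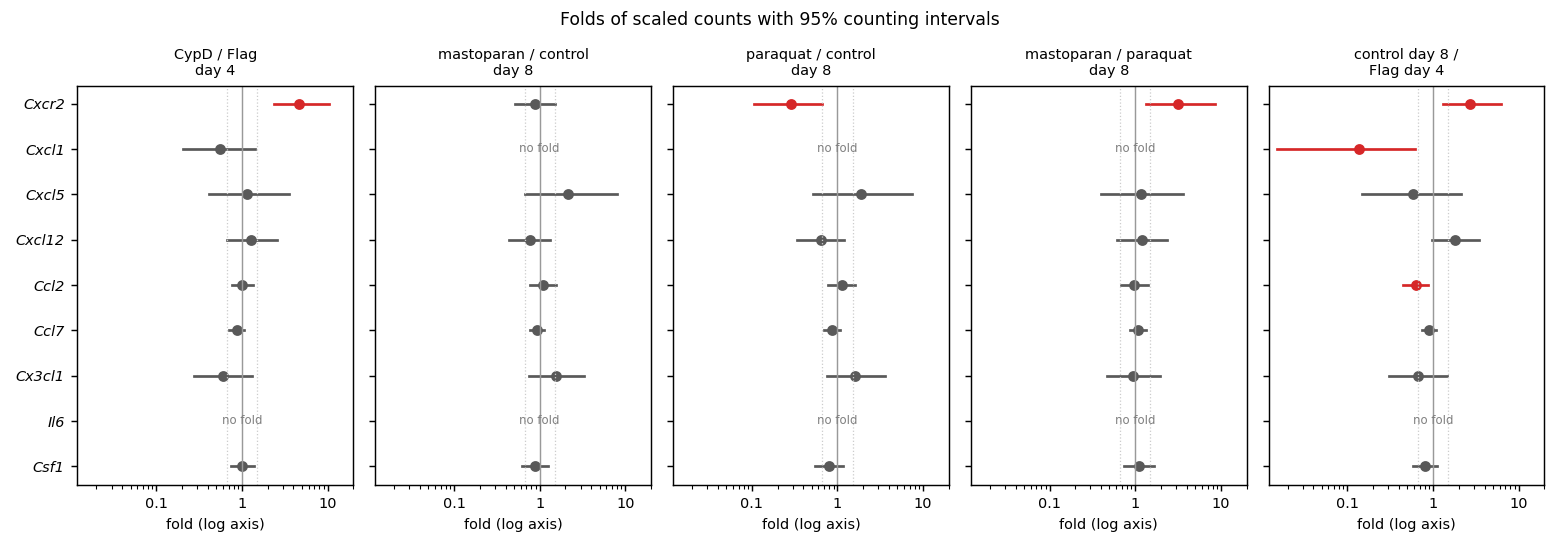
Fold of each member in the 5 comparisons on a log axis, with bars for the 95% counting interval, red where the interval leaves out 1, and dotted lines at 1.5-fold either way. No fold is drawn where both counts were at or under 3. Cxcr2 is red in 4 of the 5 panels, and Cxcl1 and Ccl2 are red only for the day-8 control against Flag.

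The day-8 control against Flag at day 4 compares libraries that differ in day and in their labelled genotype, which cannot be told apart. Of 8 members compared, Cxcr2 and Cxcl12 were at least 1.5-fold higher in the day-8 control, beside 18.6% of all genes. Cxcl1, Ccl2 and Cxcl5 were at least 1.5-fold lower, beside 12.9%. Intervals left out 1 for Cxcr2, at 2.71-fold higher (1.31 to 6.17), and for Cxcl1 and Ccl2, beside 37.3% of genes. The median log2 ratio was -0.41 for the members and -0.00013 for all genes.

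Across the days, 3 of the 8 members that averaged 1 CPM or more over the 5 libraries were lower in all 3 day-8 libraries than in both day-4 libraries, beside 28.1% of 13584 genes. They were Cxcl1, Ccl2 and Csf1. No member was higher in all 3, beside 28.5% of genes. The pooled counts gave a level at day 8 that was 3.61 times lower (1.54 to 9.43) for Cxcl1 and 1.37 times lower (1.11 to 1.69) for Csf1. Libraries of a day differ in label or treatment and are not replicates, so these intervals cover only the counting error of the sums. For Csf1 the day-8 control alone was 1.23 times lower than Flag, with an interval of 0.888 to 1.71. In bulk RNA, fewer cells of a type and less RNA per cell cannot be told apart. The day-8 libraries were also higher in epithelial markers, with all 5 higher in every day-8 library and a summed level of 622 to 707 CPM against 190 to 207 CPM at day 4. The part of the epithelial markers in these differences was not tested.

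**Figure D4:**
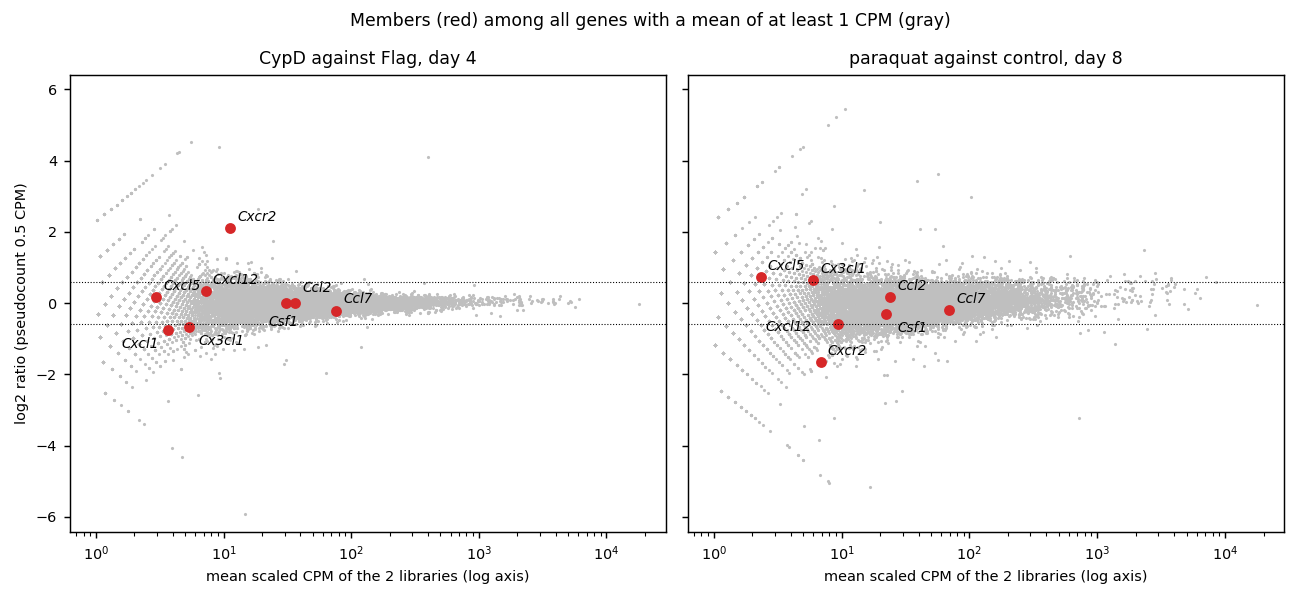
Log2 ratio against mean scaled CPM (log axis) for all genes averaging 1 CPM or more (gray) and the members (red), for CypD against Flag and for paraquat against control, with dotted lines at 1.5-fold. Cxcr2 lies at 2.10 in the first panel and at -1.66 in the second, beyond the dotted lines in both, and Ccl2, Ccl7 and Csf1 lie between the lines in both.

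Markers of cells that normally carry Cxcr2 were near or at 0. Of 11 neutrophil markers, Camp, Ngp, Csf3r, Fpr1 and Retnlg had 0 counts in all 5 libraries, and the summed count was 3 with Flag, 1 with CypD, 11 in the control, 7 with mastoparan and 9 with paraquat. Ly6g was the 1 neutrophil marker averaging 1 CPM or more. It ran from 1.30 to 2.27 CPM at day 8 and from 0 to 0.789 CPM at day 4, without overlap, as did 28.5% of all genes. Ltf, under 1 CPM in every library, was also higher in all 3 day-8 libraries than in both day-4 libraries. The part of neutrophil RNA in the Cxcr2 levels was not tested. Of the 13 leukocyte markers, Adgre1 and Cd52 were at 0 in all 5 libraries and Ptprc had 0 or 1 count. Their summed level was 39.9 CPM with Flag and 43.7 CPM with CypD at day 4, and 69.1 to 77.5 CPM at day 8, carried mostly by Laptm5 and Cd68. Of the 6 leukocyte markers that averaged 1 CPM or more, 4 were higher in all 3 day-8 libraries than in both day-4 libraries, beside 28.5% of all genes. The 6 lymphocyte markers summed to 0 to 5 counts and the 6 endothelial markers to 48.96 to 60.7 CPM, the latter mostly Tek. The part of leukocyte RNA in the day differences of Ccl2, Cxcl1 and Csf1 was not tested.

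The genes whose levels most resembled those of Cxcr2 over the 5 libraries, by Pearson's r of log2 levels among 10555 genes averaging 5 CPM or more, were Usp32 (0.994), Cog8 (0.991), Gabpb1 (0.985), Cr1l (0.982) and Rfx3 (0.980). With 5 points that share libraries and depth, 26 genes (0.246%) reached an r of 0.95 or more. The log2 levels of these 5 genes had SDs of 0.12 to 0.28, against 1.00 for Cxcr2. Usp32, Cog8 and Gabpb1 were marginally higher with mastoparan than in the control, the opposite order to Cxcr2. Cog8 shares 27.16% of its windows with other genes, and its count is uncertain.

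Genes outside the set are given from lists of related genes. Some of these lists also hold members, and the counts of a list include them. Their counts past 1.5-fold stand beside the shares of all genes already given for each comparison, and none is read as particular to its list.

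With Cxcr2 included, 23 chemokine receptors were listed, of which 9 had 0 counts in all 5 libraries and 3 (Ackr3, Cxcr2 and Cxcr4) were above the floor in all. Cxcr6, the receptor of Cxcl16, had 8 counts with Flag, 6 with CypD, 8 in the control, 1 with mastoparan and 0 with paraquat. The mastoparan library was 7.39 times lower than the control with an interval of 0.991 to 328, and paraquat was at least 2.0 times lower against the floor of 3 counts per library. Ackr1 had 5 counts in the control, 0 with mastoparan and 5 with paraquat, and it shares 20.49% of its windows with another gene. The levels of Cxcr6 with mastoparan and paraquat were both under the floor and are not put in order.

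Another 10 measured CXC and XC ligands were outside the list of 5 that can bind Cxcr2. Of these 10, 4 had 0 counts throughout and Cxcl12, Cxcl14 and Cxcl16 were above the floor in all libraries. Cxcl14, a chemokine of epithelia and fibroblasts, had 125 counts with Flag, 183 with CypD, 87 in the control, 103 with mastoparan and 112 with paraquat. It was 1.75 times lower in the day-8 control than with Flag (1.32 to 2.33) and 1.72-fold higher with paraquat than in the control (1.29 to 2.30). Among the 22 CC and CX3C ligands, 10 had 0 counts throughout. Ccl25 had 15 counts in the control and 7 with mastoparan, 1.98 times lower (0.760 to 5.74). Ccl27a was 2.17-fold higher in the day-8 control than with Flag (1.05 to 4.81), but it shares 45.45% of its windows with other genes and its count is uncertain.

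Of the 16 listed genes that carry the CXCR2 signal inside the cell, G protein subunits, receptor kinases, arrestins and Rac among them, 12 were compared. None passed 1.5-fold for CypD against Flag, mastoparan against control, paraquat against control or mastoparan against paraquat, where 5.22%, 5.29%, 8.22% and 9.27% of all genes were higher and 5.75%, 5.7%, 10.5% and 7.72% lower. With so few genes, 0 is not far from these shares. For paraquat against control the interval left out 1 for 1 gene on the higher side and 3 on the lower, and for the day-8 control against Flag for 1 and 4, beside 21.1% and 37.3% of all genes in either direction. The median log2 ratio was -0.06, -0.04, -0.07 and 0.01 in the same order. Prex1, a Rac exchange factor activated by G protein beta-gamma subunits, was the 1 gene past 1.5-fold in the day-8 control over Flag, at 2.07-fold (1.35 to 3.24). The neutrophil isoforms Plcb2 and Pik3cg had 0 counts in every library and are named for that reason after their values were seen.

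Of the 22 NF-kappaB pathway genes and targets measured, 20 were compared for CypD against Flag. None was at least 1.5-fold higher, beside 5.22% of all genes, and 2, Bcl3 and Icam1, were lower, beside 5.75%. The interval left out 1 for 4 genes on the lower side and none on the higher, beside 8.32% of all genes in either direction. Bcl3, a nuclear I-kappaB protein, was 1.65 times lower with CypD (1.08 to 2.55). For paraquat against control 21 were compared, with 2 higher, beside 8.22% of all genes, 4 lower, beside 10.5%, and a median of -0.0033. The share of higher genes was thus near that of all genes, and the share of lower genes was above it. The interval left out 1 for 1 gene on the higher side and 5 on the lower, beside 21.1% of all genes in either direction. With so few genes, nothing about the list is read from these counts. Icam1, an adhesion molecule for leukocytes, had 10 counts with Flag, 8 with CypD, 11 in the control, 8 with mastoparan and 0 after rounding with paraquat, so that paraquat was at least 2.74 times lower than the control against the floor. Tnfaip3, which ends NF-kappaB signalling, was 2.46 times lower with paraquat than in the control (1.02 to 6.79). For mastoparan against control, 2 of 21 were higher and 1 lower, and Nfkbie, an inhibitor of NF-kappaB, was 2.36-fold higher (1.11 to 5.34). For mastoparan against paraquat, 3 of 21 were higher, with Nfkb1 at 1.64-fold (1.12 to 2.42) and Vcam1 at 1.62-fold (1.13 to 2.34), and none was lower. For the day-8 control against Flag, 3 of 20 were higher, beside 18.6% of all genes, and 1 lower, beside 12.9%. Tnip1 and Nfkbia were among the higher genes. The interval left out 1 for 4 genes on each side, beside 37.3% of all genes in either direction.

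Among 19 genes of the IL6 family, 14 were compared for CypD against Flag and none passed 1.5-fold. For paraquat against control, 2 of 13 were lower and none higher. They were Il6ra, 2.50 times lower (0.966 to 7.59), and Jak2, a kinase bound to gp130, 1.55 times lower (1.20 to 2.02). Socs3, a feedback inhibitor of gp130 signalling, was 1.75-fold higher in the day-8 control than with Flag (1.45 to 2.12). For mastoparan against control 1 of 13 was higher, Ctf1, at 1.66-fold (0.829 to 3.42).

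Of the 10 colony-stimulating factors, related ligands and receptors, none of 5 compared for CypD against Flag and none of 6 compared for mastoparan against control passed 1.5-fold. Il34, the other ligand of Csf1r, was 2.02-fold higher in the day-8 control than with Flag (1.21 to 3.48), whereas Csf1 was 1.23 times lower (0.888 to 1.71). Kitl, the ligand of Kit, had 17 counts with Flag and 4 in the day-8 control, 5.17 times lower (1.69 to 21.1). Csf2ra was 1.91 times lower with paraquat than in the control (1.09 to 3.51), and Csf1r, with 10 against 4 counts, was 3.34-fold higher (0.963 to 14.6). The day-8 control and Flag thus differed in opposite directions for the Csf1r ligands Il34 and Csf1, of which the interval for Csf1 holds 1.

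Among the 20 genes of the IL1 and TNF families, Il1b and Tnf had 0 counts in all 5 libraries, and are named for that after their values were seen. Il1rn, the secreted antagonist of the IL1 receptor, was 2.38 times lower in the day-8 control than with Flag (1.94 to 2.94), with 276 counts with Flag and 141 in the control. Of 14 compared for paraquat against control, 2 were higher and 2 lower. Tlr3, an endosomal receptor for double-stranded RNA, was 4.01-fold higher on 9 against 3 counts (1.00 to 23.0). Il1rap, a subunit of the IL1 receptor, was 3.24 times lower (1.31 to 9.64). Of 13 compared for CypD against Flag, 1 was higher and none lower. It was Il33, with 7 against 2 counts and a ratio of 2.57 (0.489 to 25.3).

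Of 26 other secreted factors associated with senescence, 21 were compared for CypD against Flag, with 1 higher and 1 lower and a median of -0.04. For paraquat against control, 1 of 19 was higher, beside 8.22% of all genes, and 5 were lower, beside 10.5%. Among the lower genes was Spp1 (osteopontin), 1.66 times lower (1.28 to 2.17). Gdf15, a stress-responsive cytokine, had 11 counts in the control, 25 with mastoparan and 7 with paraquat. Mastoparan was 2.46-fold above the control (1.17 to 5.54). In the day-8 control over Flag, 8 of 20 were higher, beside 18.6% of all genes, and 5 lower, beside 12.9%, with Igfbp2 at 5.22-fold (4.49 to 6.10). Between these libraries Cxcl1 and Ccl2 were thus lower at day 8 while Igfbp2 was higher.

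Of 14 genes that cleave or display chemokines, none passed 1.5-fold for CypD against Flag or for mastoparan against control. Ndst1, an enzyme of heparan sulfate synthesis, had 85 counts with Flag, 97 with CypD, 52 in the control, 57 with mastoparan and 16 with paraquat. It was 2.43 times lower with paraquat than in the control (1.37 to 4.57). Sdc4, a heparan sulfate proteoglycan, was 2.43-fold higher in the day-8 control than with Flag (1.94 to 3.06).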

How the data were processed

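Per the labels' protocols, Trizol RNA went into TruSeq RNA libraries. The submitters' processing notes name Bowtie2 2.2.5 and mm10. The counting program, its annotation and its strand setting were, for these files, not given in the sources used here. Deposited tables hold, per their file headers, an expected count, a TPM, an FPKM and an average and effective length per gene, and the average length and the first 2 measures were used. The authors' deposited TPM and lengths were used as given.

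Gene IDs were matched to symbols with the GRCm38 annotation, and 28756 of 29267 had one. Expected counts were rounded to whole counts and scaled with TMM factors (edgeR 4.0.16, R 4.3.3). Library totals ran from 2426015 to 3426702, which with 1 library per group leaves counting error as the only error that could be given. Log2 ratios used 0.5 CPM as pseudocount and genes averaging 1 CPM or more in the pair compared. Folds carry exact Clopper-Pearson 95% intervals from scipy 1.17.1. Shared 49-base windows were counted in 82533 of 84205 transcripts. Promoters came from RefSeq GRCm38.p6. The code was tested on simulated data.

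The members and the 18 gene lists were chosen with earlier results of these data known. Named genes are the members, Ppif, the 5 genes most like Cxcr2 and, for each list and comparison, up to 3 genes past 1.5-fold with the largest log2 ratios. Other genes are named with the reason beside them, and a few that the rule takes are left unreported. Of 238 listed genes 236 were found, and Cxcl11 and Cebpd are not analysed here. Alternatives were library totals alone, DESeq2 1.42.0 size factors, upper-quartile factors, deposited TPM, pseudocounts of 0.1 and 2 CPM, no filter or a minimum of 5 CPM, and a trend along transcript length removed in 40 bins. The count of members separated by day was added to these after seeing the data.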

Additional observations from a re-analysis of the deposited data

How the results depend on the processing

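With 1 library per group no replicate could be left out. No paired analysis was possible because each group had 1 library. The log2 ratio of Cxcr2 ranged over the alternatives from 1.79 to 2.2 for CypD against Flag, -1.79 to -1.34 for paraquat against control, -0.20 to -0.15 for mastoparan against control, 1.19 to 1.61 for mastoparan against paraquat and 1.10 to 1.42 for the day-8 control against Flag. The number of members past 1.5-fold moved with the settings. For CypD against Flag it was 3, 2 with a minimum of 5 CPM and 1 with a pseudocount of 2 CPM. For mastoparan against control it was 1, and 2 with upper-quartile factors, with deposited TPM or with a pseudocount of 0.1 CPM, and 0 with a minimum of 5 CPM. For paraquat against control it was 4 and stayed at 4 only with a pseudocount of 0.1 CPM. It was 5 with no filter, 3 with library totals, DESeq2 or upper-quartile factors, a minimum of 5 CPM or the length trend removed, 2 with deposited TPM and 1 with a pseudocount of 2 CPM. For the day-8 control against Flag it was 5, 6 with no filter, 4 with a pseudocount of 2 CPM and 3 with a minimum of 5 CPM. For mastoparan against paraquat it was 1 under every alternative run. The number of members lower in all day-8 libraries was 3, and it was 4 with no filter, where Il6 was added, and 2 with a minimum of 5 CPM. Of 334 values of members under the alternatives, 333 moved within their interval, and 1, Ccl7 for paraquat against control, reached -0.57 with the length trend removed. Of 802 values of other genes 1 turned its direction: Coro1a for mastoparan against control was 0.27 on deposited TPM. Another 3 values moved beyond their interval: S100a4 for paraquat against control, from 0.61 to 0.35 on deposited TPM and 0.07 with the length trend removed, and Dpp4 for the day-8 control against Flag, from 0.74 to 0.02 on deposited TPM. Deposited TPM moved the median log2 ratio of all genes to -0.28 for paraquat against control, from -0.03, and to 0.22 for mastoparan against paraquat, and library totals moved the former to -0.13. The cause of these shifts was not tested. Depth limits Il6, Cxcl1 and Cxcl5, whose counts were 12 or fewer in every library. It also limits Cxcr2, whose folds against Flag or paraquat rest on 10 and 7 counts in those libraries.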
